A study of Mus musculus with 24 samples.

Results

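Liver-resident invariant NKT (LiNKT) cells were examined for 8 genes, out of 55401 counted, that hold back cell division or favour cell death. These were the INK4 inhibitors Cdkn2a, Cdkn2b, Cdkn2c and Cdkn2d, the CIP/KIP inhibitors Cdkn1a and Cdkn1b, the anti-proliferative gene Btg1 and the pro-apoptotic gene Pmaip1. They were chosen by name on measured values of these samples, their SmartSeq2 reads in both groups, their relation per cell to Mki67 and Top2a reads, the methylation within 50 kb and the insertions by barcode ending among them, so that those values are a description. The cells came from NOD mice, a strain prone to autoimmune diabetes, which were left untreated or received αGalCer/CD1d-NPs, nanoparticles that display the glycolipid αGalCer bound to CD1d. Treated mice had been given these nanoparticles at 20 µg protein per dose, 2 times a week for 5 weeks. SmartSeq2, which reads the RNA of single sorted cells, used 3 male mice per group aged 13 to 15 weeks. Whole genome bisulfite sequencing (WGBS), which gives the fraction of methylated cytosines, used 7 untreated females aged 17 weeks and 4 treated mice aged 16 weeks, whose sex was not given in the sources used here, so that treatment, age and possibly sex cannot be told apart there. The multiome ATAC-seq, which marks open chromatin by transposase insertions in single nuclei, used 5 untreated and 4 treated male mice aged 13 to 15 weeks. Each assay left 1 sample per group in which the mice could not be told apart, so that no test between groups was possible. The intervals given are 95% intervals that cover counting error only, and SmartSeq2 reads include PCR copies. Intervals of pooled read levels count reads and not cells, so that they leave out the spread between cells.

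Cyclin-dependent kinases take a resting cell into DNA replication. INK4 proteins bind the kinases Cdk4 and Cdk6, and CIP/KIP proteins bind a broader set of cyclin and kinase complexes. Cdkn1a and Pmaip1 are textbook targets of the transcription factor p53, and Noxa, the product of Pmaip1, binds and neutralizes the survival protein Mcl1.

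The cells used were those with a sub-cluster in the annotation of the study, 273 of 284 untreated and 251 of 282 treated cells. They held 172559865 and 149084200 reads in all, with 4056 to 1398716 reads per cell and a median of 861 and 850 genes. Markers of T and iNKT cells were read in both groups, 7 of 7, in 4.40% to 87.3% of the cells. Of the 3 B cell markers, Cd79a alone was read, in 0.366% of untreated cells. The 3 macrophage markers summed to 0.0116 CPM (read counts scaled to a common total) in untreated cells, where Lyz2 was at 0, and to 1793 CPM in treated cells, where each was read in 0.797% to 4.38% of the cells. The 4 hepatocyte markers were all at 0 in untreated cells and summed to 82.3 CPM in treated cells. Any macrophage or hepatocyte marker was carried by 2 untreated and 14 treated cells. Without them the log2 ratio of treated over untreated CPM became -0.10 for Pmaip1 (from 0.63), 1.27 for Cdkn2d (from 1.11) and 0.59 for Btg1 (from 0.51), and those of the other 5 genes stayed within their counting interval.

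Treated cells had a higher CPM than untreated cells for 7 of the 8 genes, the exception being Cdkn1b. The share of all genes in that direction was not counted, and their median ratio is given below. Of the 8 genes, 4 (Cdkn2a, Cdkn2b, Cdkn2c and Cdkn2d) were at least 2-fold higher in treated cells on the log2(CPM + 1) scale, and none was 2-fold lower. Among the 15052 genes with at least 10 reads, 20.1% were 2-fold higher and 17.2% were 2-fold lower. Cdkn2a had its reads in the treated group alone, so that its direction was fixed by the filter. Cdkn2b was just past the limit and fell below it with all deposited cells (log2 ratio 0.92) and in lane 2 (0.65). Lanes 1 and 2 stand for the number after the run name in the cell names. It was taken as a flow cell lane, which no label states. In lane 2, 4 genes were also past 2-fold, but these were Cdkn2c, Cdkn1a and Btg1 (higher) and Pmaip1 (lower). Of the 12153 genes with at least 10 reads in that lane, 3283 were 2-fold higher and 3213 were 2-fold lower. The median log2 ratio was 0.82 over the 8 genes, and also with Cdkn2a at its lower bound, and 0.02 over all genes. The share of cells with at least 1 read was higher in treated cells for 7 of the 8 genes, against 51.0% of all genes, and for 5 of the 8 in lane 2, where Cdkn2d and Pmaip1 were lower, Cdkn1b was higher and Cdkn2a was not read. The intervals of the 2 groups overlapped for each of the 8 genes, as the plot of shares shows. The genes were rare: apart from Btg1, none was read in more than 8.76% of the cells of a group.

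**Figure D1:**
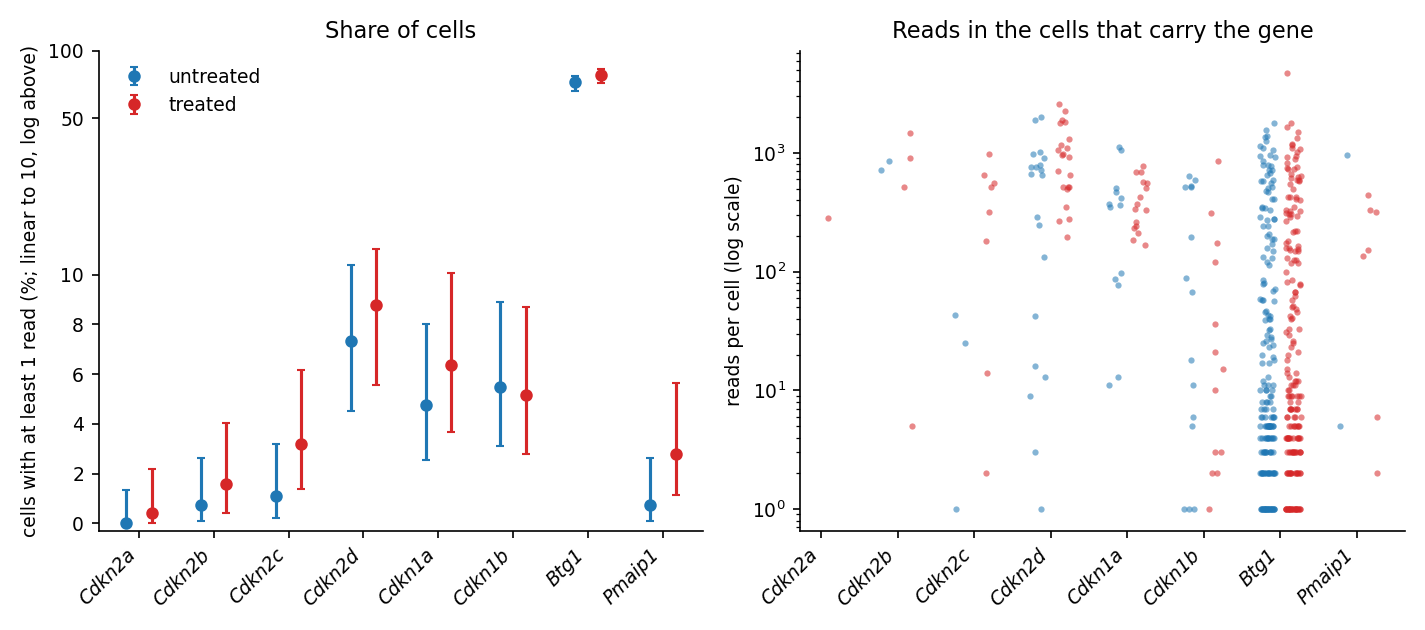
Left, percent of SmartSeq2 cells with at least 1 read of each gene (points, with exact 95% binomial intervals) among 273 untreated (blue) and 251 treated (red) cells, on an axis that is linear to 10% and logarithmic above. Right, reads per cell on a log axis, 1 point per cell that carries the gene. Btg1 stands at 72.2% and 77.7%, the other genes at or below 8.76%, and cells that carry an inhibitor held up to 2574 reads.

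Levels between genes were compared per kb of exon, as CPM per kb. Cdkn2d had the highest level in both groups, 43.9 in untreated and 95.1 in treated cells, followed by Btg1 with 34.1 and 48.5. In lane 2 of the treated cells the order was turned, with 36.8 for Cdkn2d and 63.7 for Btg1. In untreated cells Cdkn1a (8.04), Cdkn2b (6.52), Cdkn1b (4.06) and Pmaip1 (2.06) came next, and Cdkn2c (0.149) and Cdkn2a (0) were last. In treated cells Cdkn2b (14.0), Cdkn1a (12.4) and Cdkn2c (8.05) stood above Pmaip1 (3.39), Cdkn1b (2.30) and Cdkn2a (1.61). Between cells these levels varied so much that 1 cell could decide them, and neighbours in this order are not separated by any spread over animals.

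Cdkn2a encodes p16INK4a and, from a separate first exon, p19ARF, which stabilizes p53 by binding Mdm2. It lies at chr4:89274471-89294653 on the minus strand (GRCm38), and its reads cannot be split between both products. No read was found in 273 untreated cells, which allows a share of up to 1.10% by 3 counts of the total and 1.34% by the exact interval. In treated cells 282 reads came from 1 cell of 251 (0.398%; interval, 0.0101% to 2.20%), a cell of sub-cluster 4. The pooled level was 1.89 CPM, at least 109-fold higher than the floor of 3 reads over the untreated group, and it was 0 without that cell.

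The region that gained methylation within Cdkn2a spanned chr4:89292805-89294142 (1338 bases). It lay in the intron that follows the first exon of the longer, p19ARF transcript. In the direction of transcription it began 511 bases downstream of that transcript's start. Its mean methylation was 0.500 without treatment and 0.697 with treatment over 43 CpG cytosines of both strands, with a q-value of 0.0317 in the deposited table. All 22 CpG dinucleotides were higher in treated cells. Single CpGs ranged from 0.045 to 0.86 in untreated cells, with a median of 0.56, and from 0.20 to 0.935 in treated cells, with a median of 0.80. In untreated cells the 4 CpGs nearest to the p19ARF start were the lowest, between 0.045 and 0.195. The start of the p16INK4a transcript lay 10613 bases from the region. In such bulk samples a difference in the share of cells and a difference within each cell cannot be told apart. The 300 bases of this region with the most CpGs (chr4:89293348-89293647, plus strand, GRCm38) are shown because this is the gain at the INK4a and ARF locus; CpGs are in capitals.
Cdkn2a: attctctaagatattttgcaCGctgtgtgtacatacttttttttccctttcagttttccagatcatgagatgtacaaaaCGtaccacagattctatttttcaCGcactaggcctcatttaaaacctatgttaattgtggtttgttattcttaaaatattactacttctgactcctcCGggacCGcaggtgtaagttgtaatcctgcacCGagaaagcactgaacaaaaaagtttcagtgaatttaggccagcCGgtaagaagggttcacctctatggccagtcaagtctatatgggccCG

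Chromatin at the p19ARF start was accessible although transcripts were nearly absent. The 2 kb on either side of it held 2364 insertions from barcodes ending in 1 and 3174 from barcodes ending in 2. Scaled to the total of each ending as CPM are (IPM), that is 14.5 (interval, 13.9 to 15.1) and 21.2 (20.5 to 21.9) IPM, a 1.46-fold difference. Its level stood at percentile 57.8 of the promoters of all protein-coding genes. The methylated intron itself held 1.01 and 1.10 IPM, with overlapping intervals. The fragment table pools both groups, and no source ties an ending to a treatment group, so that no treatment effect is read from them.

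Cdkn2b encodes p15INK4b and lies at chr4:89306299-89311039, 12.2 kb from the region in Cdkn2a. It was read in 2 of 273 untreated cells (0.733%; interval, 0.0888% to 2.62%), which held 713 and 850 reads. Among treated cells 4 of 251 carried it (1.59%; 0.436% to 4.03%), with 5, 520, 910 and 1459 reads. Both untreated cells thus lay within the range of the treated cells, of which there were 2 more. Summed over its cells, the untreated group had 9.06 CPM and the treated group 19.4 CPM, and the log2 ratio of 1.02 fell just past the 2-fold limit. The promoter had 27.7 and 32.7 IPM for endings 1 and 2.

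Cdkn2c, which encodes p18INK4c, lies at chr4:109660876-109667189 and had the highest ratio of the 8 genes on the log2(CPM + 1) scale. The 3 untreated cells that carried it (1.10%; interval, 0.227% to 3.18%) had 1, 25 and 43 reads. The 8 treated cells (3.19%; 1.39% to 6.18%) had 2, 14, 180, 321, 520, 553, 652 and 980 reads. Thus 6 treated cells lay above the highest untreated cell. Its level over all cells was 0.400 CPM without treatment and 21.6 CPM with treatment, with intervals of 0.311 to 0.506 and 20.9 to 22.4. These intervals count reads and not cells, whereas the intervals of the shares overlapped. The log2 ratio was 4.01, and 3.81 without the top cell of each group. Of the 8 treated cells 5 belonged to sub-cluster 5, which had 57 cells in all and none from untreated mice.

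A region upstream of Cdkn2c lost methylation. It spanned chr4:109674224-109674678, 7.04 kb from the gene, between Cdkn2c and Faf1, the nearest protein-coding gene. Its mean fraction was 0.955 in untreated and 0.678 in treated cells over 12 CpG cytosines (q = 0.0353), and all 6 CpGs were lower in treated cells. In untreated cells the 6 CpGs kept between 0.925 and 0.985, whereas in treated cells they ranged from 0.495 to 0.935. The outermost pair of CpGs had 0.925 or more in both groups, and most of the loss lay in the 4 between them. The region had few insertions, 12 and 23 for endings 1 and 2. In contrast the Cdkn2c promoter had 46.3 and 52.1 IPM and a percentile of 82.4. The 300 bases that hold 5 of the CpGs (chr4:109674379-109674678, plus strand) are printed because they lie near the gene with that ratio, with CpGs in capitals.
Cdkn2c: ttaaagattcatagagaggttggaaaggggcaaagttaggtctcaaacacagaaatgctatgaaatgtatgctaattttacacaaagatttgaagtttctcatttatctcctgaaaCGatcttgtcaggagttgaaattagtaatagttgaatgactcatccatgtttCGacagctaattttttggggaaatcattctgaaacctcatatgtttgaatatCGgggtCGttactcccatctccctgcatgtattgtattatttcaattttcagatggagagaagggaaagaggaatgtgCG

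Cdkn2d encodes p19INK4d and was the inhibitor read in the most cells of both groups. It was found in 20 of 273 untreated cells (7.33%; interval, 4.53% to 11.1%), with 1 to 1991 reads and a median of 660.5. In treated cells it was found in 22 of 251 (8.76%; 5.57% to 13.0%), with 197 to 2574 reads and a median of 943. The intervals of the share overlapped, and 6 untreated carriers but no treated carrier had fewer than 50 reads. Over the whole group this gave 69.0 CPM for untreated mice and 150 CPM for treated mice, a log2 ratio of 1.11. The 2 lanes did not share this difference: the log2 ratio was 1.47 in lane 1 and -0.26 in lane 2, where 7 of 89 untreated and 5 of 78 treated cells carried the gene.

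The share of cells with Cdkn2d was also counted by sub-cluster. In sub-cluster 4 it was read in 7 of 43 untreated (16.3%; interval, 6.81% to 30.7%) and 18 of 133 treated cells (13.5%; 8.22% to 20.5%). In sub-cluster 2 it was read in 13 of 228 untreated (5.70%; 3.07% to 9.55%) and 3 of 61 treated cells (4.92%; 1.03% to 13.7%), and in sub-cluster 5 in 1 of 57 treated cells (1.75%; 0.0444% to 9.39%). The intervals of the sub-clusters overlapped in both groups. Sub-clusters were assigned from the same transcriptomes and give no test. No differentially methylated region lay within 50 kb of Cdkn2d, at chr9:21288410-21291407. Its promoter was among the most accessible (percentile 98.6), with 111 and 115 IPM for endings 1 and 2.

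Cdkn1a encodes p21, the inhibitor that p53 induces after DNA damage. It was read in 13 of 273 untreated cells (4.76%; interval, 2.56% to 8.01%), with 11 to 1111 reads and a median of 367. In treated cells it was read in 16 of 251 (6.37%; 3.69% to 10.1%), with 169 to 775 reads and a median of 355. The levels in cells that carried it thus overlapped over most of their range. Summed over its cells, the untreated group had 28.6 CPM and the treated group 44.1 CPM, a log2 ratio of 0.61. It was 0.31 in lane 1 and 1.47 in lane 2, where it was past 2-fold. Of the 13 untreated carriers 12 were in sub-cluster 2, which held 228 of the 273 cells, and of the 16 treated carriers 15 were in sub-clusters 4 and 5, which held 190 of the 251 cells. Within sub-cluster 2 the share was 5.26% (interval, 2.75% to 9.01%) in untreated and 1.64% (0.0415% to 8.80%) in treated cells, and within sub-cluster 4 it was 2.33% (0.0589% to 12.3%) and 7.52% (3.66% to 13.4%), with overlapping intervals in both.

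A region 25.1 kb upstream of Cdkn1a (chr17:29090976-29100727) lost methylation. It covers chr17:29065612-29065909, within an intron of Trp53cor1, a long non-coding RNA also called lincRNA-p21. The mean fraction was 0.822 in untreated and 0.503 in treated cells over 15 CpG cytosines (q = 0.000115), and each of the 7 CpGs with values was lower in treated cells. They ranged from 0.76 to 0.955 in untreated and from 0.33 to 0.65 in treated cells, without overlap. Trp53cor1 had no reads in either group. Srsf3 was the nearest protein-coding gene. Of the 8 regions near these genes it also differed most between the barcode endings, with 86 insertions for ending 1 and 667 for ending 2. That is 0.528 (interval, 0.422 to 0.652) and 4.45 (4.12 to 4.81) IPM, 8.43-fold apart. Of the 2737 such regions with at least 10 insertions, 20.4% were at least 8-fold apart between the endings in either direction. The sequence is printed whole (chr17:29065612-29065909, plus strand, CpGs in capitals) since both methylation and accessibility data bear on it. Its 8 CpGs include a marked CpG without values and an unmarked one with values, whose C is the last base.
Cdkn1a: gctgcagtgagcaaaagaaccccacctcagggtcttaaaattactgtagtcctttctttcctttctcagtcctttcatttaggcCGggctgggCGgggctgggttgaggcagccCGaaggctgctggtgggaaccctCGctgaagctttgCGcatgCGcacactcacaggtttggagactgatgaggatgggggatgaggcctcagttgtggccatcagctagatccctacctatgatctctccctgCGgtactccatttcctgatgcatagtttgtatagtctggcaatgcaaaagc

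The starts of the Cdkn1a gene itself were compared between barcode endings. Around the first annotated start the 2 kb windows held 2.71 and 2.88 IPM (percentile 44.7), a log2 ratio of 0.09, and with 500 bases on either side the log2 ratio was 0.73. Around a second annotated start they held 89.4 (interval, 88.0 to 90.9) and 91.3 (89.8 to 92.9). The accessible site was thus the second start, and there the endings differed 1.02-fold. A further region 63.7 kb downstream, in Cpne5, gained methylation from 0.162 to 0.463, which is outside the 50 kb limit.

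Cdkn1b encodes p27, which keeps resting T cells out of the cycle, and it was the only one of the 8 genes with fewer reads in treated cells. It was read in 15 of 273 untreated cells (5.49%; interval, 3.11% to 8.90%), with 1 to 640 reads and a median of 68. In treated cells it was read in 13 of 251 (5.18%; 2.79% to 8.69%), with 1 to 859 reads and a median of 15. At least 500 reads were present in 5 untreated cells and in 1 treated cell, which held 55.1% of the treated reads. Its level over all cells was 18.5 CPM without treatment and 10.5 CPM with treatment, a log2 ratio of -0.77, and -1.47 without the top cell of each group. No differentially methylated region lay within 50 kb of Cdkn1b (chr6:134920401-134925513). Its promoter had 77.0 and 74.1 IPM for endings 1 and 2 and a percentile of 93.4.

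Btg1, a member of the BTG/TOB family that promotes mRNA deadenylation and T cell quiescence, was read in most cells. It was found in 197 of 273 untreated cells (72.2%; interval, 66.4% to 77.4%), with 1 to 1777 reads and a median of 7. In treated cells it was found in 195 of 251 (77.7%; 72.0% to 82.7%), with 1 to 4752 reads and a median of 9. The ranges overlapped nearly completely. Over the whole group this gave 180 CPM for untreated mice and 256 CPM for treated mice, a log2 ratio of 0.51, and 0.40 without the top cell of each group, which held 12.5% of the treated reads. The log2 ratio was 0.21 in lane 1 and 1.05, past 2-fold, in lane 2. Over the 251 treated cells, the genes whose CPM was most like that of Btg1 by rank were Tcea1, Pim1 and mt-Nd1, with Spearman's rho of 0.19, 0.18 and 0.18 among 2058 genes. These are weak, and rho with the reads per cell was 0.0068.

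Btg1 (chr10:96617006-96622809) had 3 differentially methylated regions within 50 kb, in both directions. The region in the last exon, chr10:96621835-96622741 in the 3′ UTR, lost methylation from a mean of 0.213 to 0.0956 over 33 CpG cytosines (q = 0.000189), with all 16 CpGs lower. Upstream, chr10:96598618-96598873 gained from 0.516 to 0.782 (q = 0.0420), with all 5 CpGs higher. Downstream, chr10:96654427-96654851, 31.6 kb from the gene, gained from 0.0796 to 0.409 (q = 0.00166), with all 7 CpGs higher. Its CpGs ranged from 0 to 0.19 in untreated and from 0.19 to 0.62 in treated cells, so that the groups met at a single value. The losing region was thus in the gene, while both gaining regions were outside. The most CpG-rich 300 bases of the downstream region (chr10:96654497-96654796, plus strand, CpGs in capitals) show the largest gain near any of the 8 genes.
Btg1: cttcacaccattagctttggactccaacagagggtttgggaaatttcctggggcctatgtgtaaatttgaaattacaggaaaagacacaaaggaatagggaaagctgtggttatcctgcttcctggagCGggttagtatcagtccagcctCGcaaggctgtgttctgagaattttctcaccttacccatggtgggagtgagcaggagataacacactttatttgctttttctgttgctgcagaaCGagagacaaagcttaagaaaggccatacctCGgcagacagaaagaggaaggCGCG

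The Btg1 promoter was the most accessible of the 8, at percentile 99.2, with 129 (interval, 127 to 131) and 123 (121 to 125) IPM for endings 1 and 2. The region in the last exon held 3.77 and 4.87 IPM. The downstream region held 1.54 (1.35 to 1.74) and 0.861 (0.719 to 1.02), the only region near the 8 genes with separate intervals and a higher value for ending 1.

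Pmaip1 was read in few cells, and its pooled level rested on single cells. In untreated cells 2 of 273 carried it (0.733%; interval, 0.0888% to 2.62%), with 5 and 968 reads. In treated cells 7 of 251 carried it (2.79%; 1.13% to 5.66%), with 2, 6, 136, 153, 317, 328 and 439 reads. More treated than untreated cells thus held the gene, but the cell with most reads was untreated. Summed over its cells, the untreated group had 5.64 CPM and the treated group 9.26 CPM, a log2 ratio of 0.63. It became 2.84 without the top cell of each group, since 99.5% of the untreated reads came from 1 cell. It turned to -0.10 without the cells that carried macrophage or hepatocyte markers. It was 3.50 in lane 1, where no untreated cell carried the gene, and -1.12 in lane 2. The sign of the read difference thus depended on which cells were kept.

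Pmaip1 (chr18:66458533-66465565) had 2 regions that lost methylation. The region at its start, chr18:66458591-66459344, covers the 5′ end including UTR and coding sequence and held 108 CpG cytosines, the most of the 8 regions. Its mean fraction fell by 0.175, from 0.337 in untreated to 0.162 in treated cells (q = 1.68e-28). All 54 CpGs were lower in treated cells, with a median of 0.295 in untreated and 0.115 in treated cells. The few CpGs at the downstream edge were the most methylated in both groups, up to 0.77 and 0.71. The region 36.0 kb upstream, chr18:66422309-66422539, had 0.864 in untreated and 0.398 in treated cells (q = 0.0115). Its 6 CpGs ranged from 0.815 to 0.92 and from 0.255 to 0.63, without overlap.

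**Figure D2:**
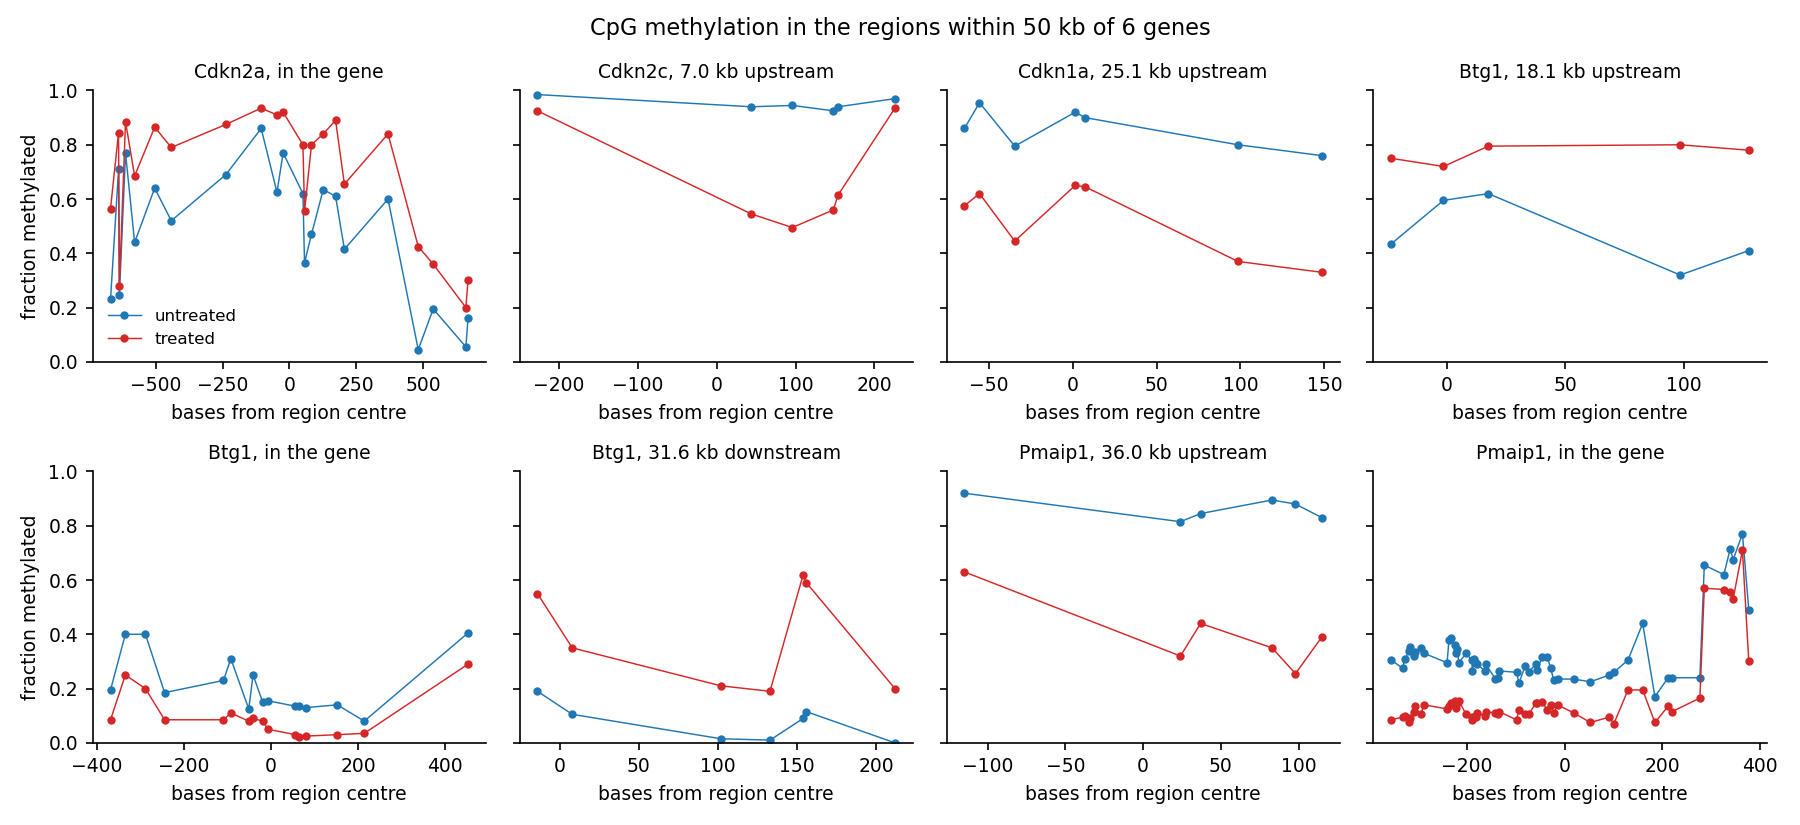
Fraction methylated at each CpG, averaged over both strands, in the 8 differentially methylated regions within 50 kb of 6 genes, in untreated (blue) and treated (red) cells, against the distance in bases from the centre of the region along the chromosome. The region in Cdkn2a is shown once although it is also near Cdkn2b. Treated cells lie above untreated cells at every CpG of the Cdkn2a region and of both Btg1 regions outside the gene, and below at every CpG of the other 5 regions.

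Pmaip1 was also the only one of the 8 genes whose promoter was at least 2-fold apart between barcode endings. It had 2595 insertions for ending 1 and 5454 for ending 2, or 15.9 (interval, 15.3 to 16.6) and 36.4 (35.5 to 37.4) IPM, 2.29-fold apart. Among 20883 promoters of protein-coding genes 11.1% were 2-fold apart in either direction. An insertion near the Pmaip1 start was found in 12.3% of 8565 barcodes with ending 1 and in 26.5% of 7237 barcodes with ending 2. Such shares rise with depth, which was a median of 7104 and 8591 fragments per barcode, and they were higher for ending 2 for all 8 genes, among them Btg1 (57.8% and 62.5%), whose IPM was lower there. The demethylated region at the start accounted for 6.68 and 14.2 IPM.

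**Figure D3:**
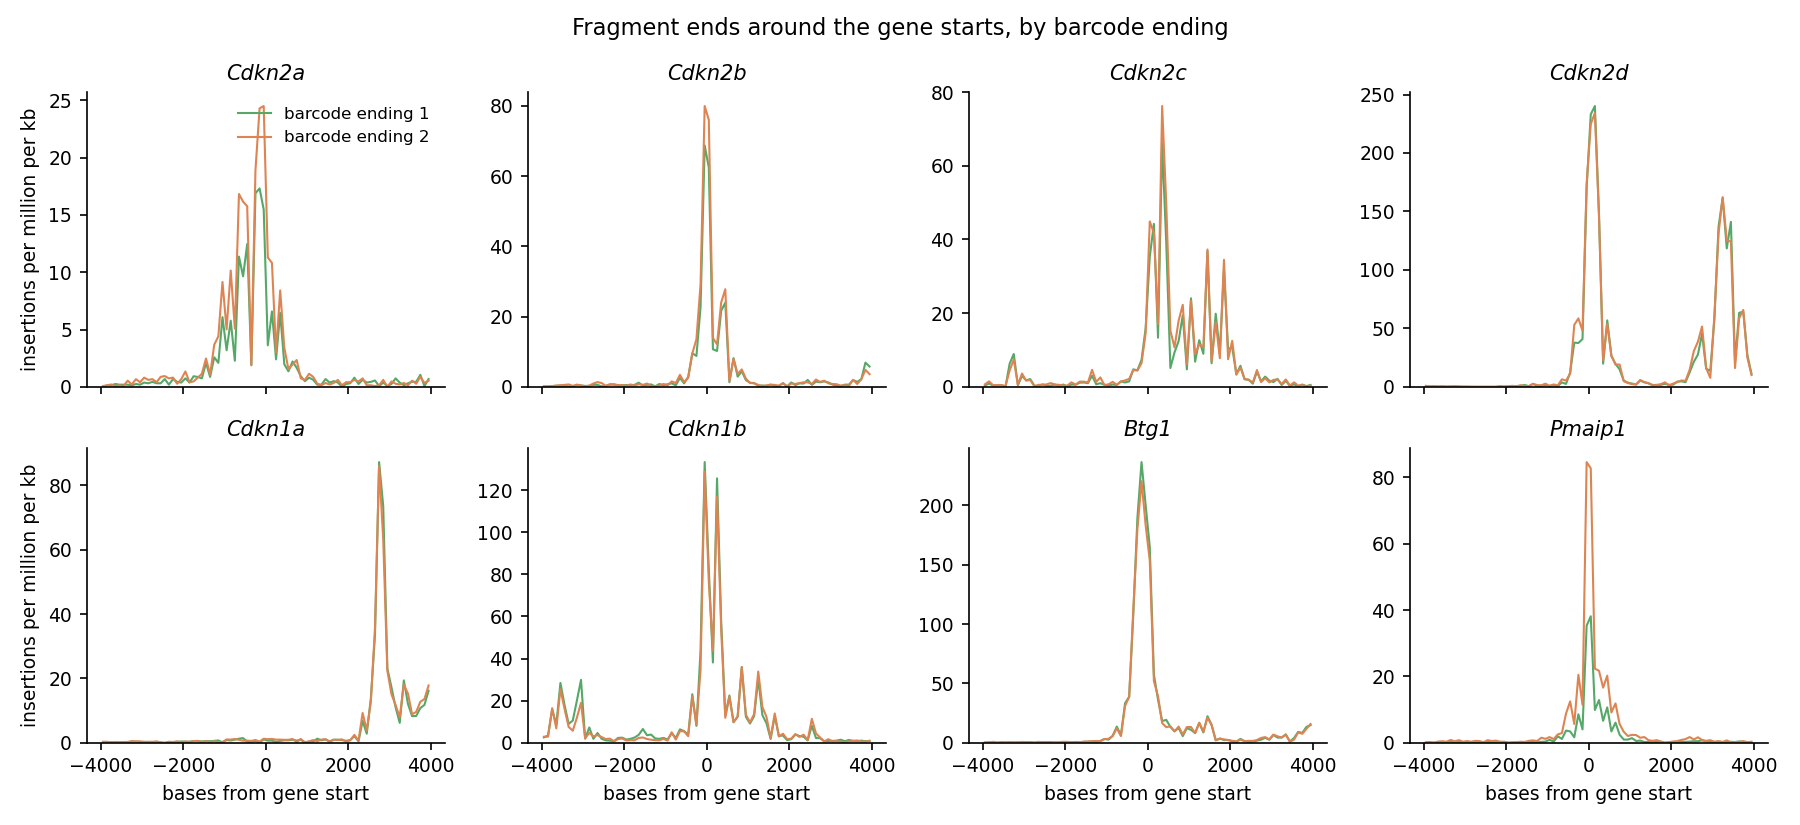
Transposase insertions as IPM per kb (the axis spells IPM out), in bins of 100 bases within 4 kb of the first annotated start of each gene, for barcodes of at least 1000 fragments ending in 1 (green) and in 2 (orange). The x axis is the distance in bases from that start in the direction of transcription, and each panel has its own y axis. The curves separate at Pmaip1 (15.9 and 36.4 IPM in 2 kb on either side) and less so at Cdkn2a. Those of Btg1, Cdkn2d, Cdkn1b and Cdkn1a nearly coincide at their highest peaks. Some other bins of these genes differ between endings 1 and 2, such as Cdkn2d at -250 bases (37.5 and 58.5) and Cdkn1b at -3050 bases (29.9 and 19.0). At Cdkn1a the peak lies at the second start.

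Considered together, 6 of the 8 genes had a differentially methylated region within 50 kb, against 16.7% of 21938 protein-coding genes, but the genes were picked with these regions known. There were 8 distinct regions, 3 with a gain and 5 with a loss. Among all deposited regions, 31.0% of 2873 gained and 69.0% lost methylation, 6.93% of the genes had a gaining and 11.3% a losing region within 50 kb, and 6.10% had a region in the gene body, as Cdkn2a, Btg1 and Pmaip1 did. Between barcode endings 4 of the 8 regions were at least 2-fold apart, compared with 63.5% of the 2737 regions with at least 10 insertions. These were both Pmaip1 regions and those of Cdkn2c and Cdkn1a, each with more insertions for ending 2. The intervals of the Cdkn2c region overlapped, and the upstream Pmaip1 region rested on 6 and 20 insertions. Barcodes of at least 1000 fragments shared 100 sequences between the endings.

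The relation of the inhibitors to division was examined through Mki67 and Top2a, which are transcribed in cycling cells. Neither was read in the 273 untreated cells, which allows a share of up to 1.10% by 3 counts and 1.34% by the exact interval, although 1 of the 284 cells deposited carried both. Among the 251 treated cells, 14 carried Mki67, 12 carried Top2a, 5 carried both and 21 carried at least 1 of them. By sub-cluster these were 12 of the 133 treated cells of sub-cluster 4, 8 of the 57 of sub-cluster 5 and 1 of the 61 of sub-cluster 2. The cell in sub-cluster 2 held 1 read of Top2a. The 21 cells had a median of 626482 reads and 1116 genes per cell, compared with 596079 reads and 839 genes in the other 230 treated cells.

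The relation of Cdkn1a to Mki67 and Top2a was among the values by which the genes were chosen, and it is given as a description. Cdkn1a was read in 8 of these 21 cells (38.1%; interval, 18.1% to 61.6%) and in 8 of the other 230 (3.48%; 1.51% to 6.74%), a difference of 34.6 percentage points. By this difference Cdkn1a had rank 14 of the 5209 genes read in at least 10 treated cells, Mki67 and Top2a left out. For how many of all genes the intervals were apart was not counted. Its pooled level was 248 CPM (240 to 257) with and 24.8 CPM (23.9 to 25.6) without Mki67 or Top2a reads. In cells that carried Cdkn1a, the median was 355 and 377.5 reads, so that the difference lay in the number of cells and not in the reads per carrier. Within sub-cluster 4 it was read in 6 of 12 cells with (interval, 21.1% to 78.9%) and 4 of 121 without Mki67 or Top2a reads (0.908% to 8.25%). In sub-cluster 5 it was read in 2 of 8 (3.19% to 65.1%) and 3 of 49 (1.28% to 16.9%), with overlapping intervals. With each cell thinned to 100000 reads the counts were 8 of 21 and 8 of 227. Each treated carrier kept at least 27 reads, so that the thinning could not have removed it. Over all deposited treated cells the difference was smaller, with 9 of 31 (29.0%) and 11 of 251 cells (4.38%), and 165 and 32.6 CPM. Of the 5 cells with both Mki67 and Top2a, 4 carried Cdkn1a. The treated carriers of Cdkn1a had a median of 1119 genes, compared with 838 in the remaining treated cells, and the part of this in the result was not tested.

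**Figure D4:**
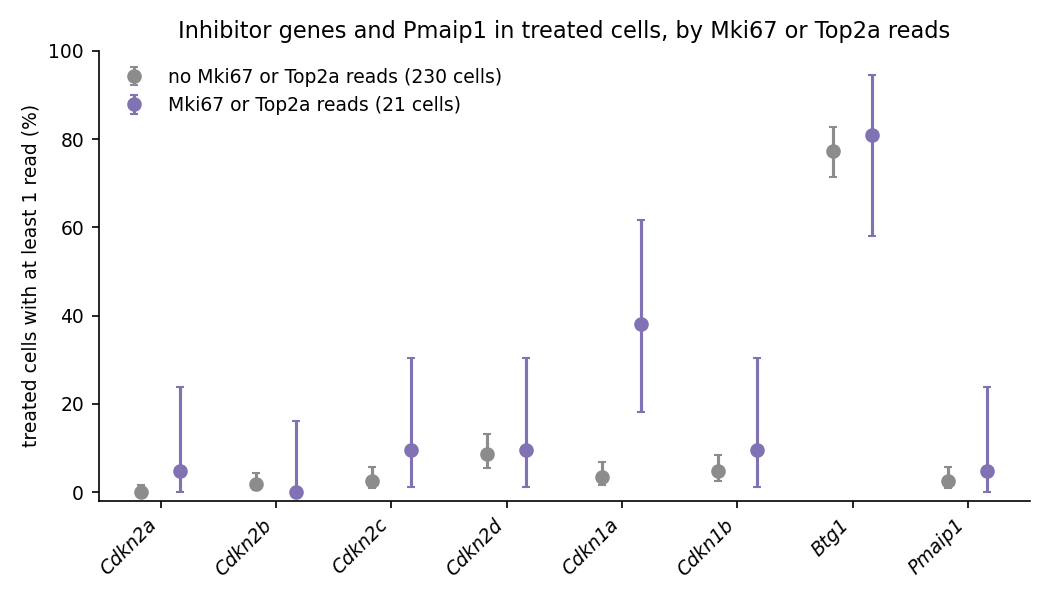
Percent of treated SmartSeq2 cells with at least 1 read of each gene, in 21 cells with (purple) and 230 cells without (grey) reads of Mki67 or Top2a, with exact 95% binomial intervals. The intervals are apart for Cdkn1a, at 38.1% and 3.48%, and overlap for the other 7 genes. For how many of all genes they are apart was not counted.

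For the other inhibitors the intervals of the shares overlapped. Cdkn2c was read in 2 of 21 and 6 of 230 cells, Cdkn2d in 2 of 21 and 20 of 230, and Cdkn1b in 2 of 21 and 11 of 230. Over all deposited treated cells the shares of Cdkn2d lay further apart, 6 of 31 (19.4%) and 20 of 251 (7.97%), also with overlapping intervals. The 1 cell with Cdkn2a reads carried Mki67 or Top2a and also Cdkn1a. Cdkn2b was read in 0 of the 21 cells, which allows a share of up to 14.3% by 3 counts of the total and 16.1% by the exact interval, and in 4 of 230. Of the 8 genes, Cdkn2d, Cdkn1a, Cdkn1b and Btg1 were read in at least 10 treated cells, and these 4 had a higher share in the cells with Mki67 or Top2a, as did 58.3% of the 5211 genes read in that many cells.

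Btg1 showed the opposite order in its level. Its share was 17 of 21 cells (81.0%; interval, 58.1% to 94.6%) with and 178 of 230 (77.4%; 71.4% to 82.6%) without Mki67 or Top2a reads. Over all deposited treated cells the share was instead 15.2 points lower with these reads. The pooled level of the annotated cells was 45.6 CPM (42.0 to 49.5) with and 276 CPM (273 to 279) without, a log2 ratio of -2.57. The highest cell had 312 reads among the 21 and 4752 among the 230. At least 5 reads were present in 11 of the 21 and in 115 of the 230 cells, so that the groups differed mainly in their cells with most reads. With each cell thinned to 100000 reads, at least 5 reads were present in 14.3% with and 32.6% without. By the same measure 28.3% of the 5211 genes were at least 2-fold lower and 12.8% at least 2-fold higher in the cells with Mki67 or Top2a. Pmaip1 was read in 1 of 21 cells, with 6 reads, and in 6 of 230.

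Cells that held more than 1 inhibitor were rare. At least 1 of the 6 Cdkn genes was read in 52 of 273 untreated (19.0%; interval, 14.6% to 24.2%) and 57 of 251 treated cells (22.7%; 17.7% to 28.4%). Of these, 1 untreated cell carried 2 of them, and among treated cells 5 carried 2 and 1 carried more. For the 2 Cdkn pairs with the largest product of shares, that product was also turned into cells. For Cdkn2d with Cdkn1a it was 0.952 untreated and 1.40 treated cells, where 1 and 2 were seen. For Cdkn2d with Cdkn1b it was 1.10 and 1.14, where 0 and 2 were seen. The difference between the groups was not tested. Within treated cells the share was 9 of 61 in sub-cluster 2, 32 of 133 in sub-cluster 4 and 16 of 57 in sub-cluster 5. Pmaip1 was read together with Cdkn1a in 1 of the treated cells and in none of the untreated cells.

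The partners and targets of these genes were read by lists, whose counts are to be read against the 20.1% of all genes that were 2-fold higher and the 17.2% that were lower. Among G1/S genes, 6 of 14 with enough reads were at least 2-fold higher in treated cells and 1 was lower, but for 3 of the 6 the direction was fixed, since they had no untreated reads. Of the kinases that the inhibitors bind, Cdk4 had 241 and 261 CPM, within 2-fold, whereas Cdk6 and Cdk2 went from 9.43 to 35.8 and from 12.3 to 46.9 CPM, and Cdk6 was read in 2.93% and 9.56% of the cells. Cdc25a, a phosphatase that activates Cdk2, went from 0.168 to 24.7 CPM but was read in 1.20% of treated cells. Ccne2, Rbl1 and E2f3 were at 0 in untreated cells and at 11.0, 4.15 and 1.90 CPM in treated cells, and Ccne1 was lower, at 17.2 and 4.42 CPM, read in 0.733% and 0.398% of the cells. Of 5 further inhibitor and BTG/TOB genes, 2 were higher: Tob2 (5.82 and 14.0 CPM) and Cdkn3, which had 0 and 2.21 CPM, so that its direction was fixed, and was read in a single cell.

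In the p53 axis the counts in both directions were near the 20.1% and 17.2% of all genes. Of 13 genes 2 were higher, Zmat3 (9.79 and 26.3 CPM) and Gadd45a (0 and 2.07 CPM, a direction fixed by the filter), and 2 were lower. Mdm2, the p53 ubiquitin ligase and itself a p53 target, went from 88.6 to 6.12 CPM and from 9.89% to 2.79% of the cells. Sesn2 went from 29.1 to 8.85 CPM but was read in 0.733% and 0.398% of the cells, and Gadd45a in 0.398% of treated cells. The median log2 ratio of the list was -0.28.

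In the BCL-2 family, 3 of 14 genes were higher, against 20.1% of all genes, and 1 was lower, against 17.2%. Bmf had no untreated reads, so that its direction was fixed. Bcl2l11, which encodes Bim, went from 18.3 to 52.4 CPM and from 7.33% to 10.4% of the cells. Bid went from 29.7 to 69.0 CPM, and Bmf from 0 to 4.11 CPM. Bik was lower, at 20.6 and 5.15 CPM. Mcl1, the partner of Noxa, had 71.2 and 80.2 CPM, within 2-fold.

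Of 20 S phase and mitosis genes, 12 were at least 2-fold higher in treated cells, against 20.1% of all genes, and 1, Mcm2 (121 and 28.0 CPM), was lower, against 17.2%. Of the 12, 9 had no untreated reads, so that the filter fixed their direction, and the others were Rrm2, Cdk1 and Stmn1. Mki67 and Top2a had 114 and 29.7 CPM in treated cells and 0 in untreated cells, that is, at least 6548-fold and 1707-fold above the floor of 3 reads. These bounds hold for the annotated cells alone: 1 untreated cell without a sub-cluster held 833 reads of Mki67 and 1 of Top2a, and over all deposited cells Mki67 had 4.65 and 137 CPM and Top2a 0.00558 and 52.9 CPM in untreated and treated cells. Birc5, Aurkb, Ccna2, Ccnb1, Ccnb2, Ube2c and Cenpf were the others without untreated reads, and they and Rrm2, Cdk1 and Stmn1 were each read in at most 5.18% of treated cells.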

How the data were processed

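LiNKT cells of NOD mice with and without αGalCer/CD1d-NP treatment were profiled by SmartSeq2, WGBS and multiome ATAC-seq. The 8 genes and all gene lists were chosen with earlier results of these data known. The named genes are the 8 genes, Mki67 and Top2a, the genes of the 5 lists past 2-fold in SmartSeq2, and the 3 genes most like a gene of the 8 that was read in at least 50 treated cells; Cdk4, Mcl1, Trp53cor1 and genes that locate a region or mark another cell type were added after values were seen.

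The SmartSeq2 values were raw read counts per gene and cell, which the authors made by alignment with STAR to GRCm38. GENCODE M21 named 55141 of 55401 IDs. Only the 524 cells with a sub-cluster in the study's supplementary annotation were used, and doublets were not called. Counts were summed per group, divided by all reads to give CPM, and compared as log2(CPM + 1) for genes with at least 10 counts. Since there was 1 sample per group, no test was made, and exact Poisson and binomial 95% intervals cover counting error only. A gene at 0 has a floor of 3 counts over its group.

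Methylation was deposited as the fraction of methylated reads per cytosine, mapped by BSMAP to mm10. The authors called regions with metilene and deposited their mean fractions and q-values. A figure caption of the study gives 3 replicates per group, but each group has 1 value per cytosine. How the replicates were combined is not given in the sources used here. The deposited values hold no read depth, and the column with the authors' own difference was not used. Region starts counted from 0, since 2872 of 2873 regions had a site at start plus 1. The deposited ATAC fragments were made with Cell Ranger ARC and BWA-MEM, with duplicates removed. Both fragment ends were counted as insertions in barcodes of at least 1000 fragments (8565 ending in 1, 7237 ending in 2), and promoters covered 2 kb on either side of the gene start. Sequences are from the RefSeq copy of GRCm38.

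The log2 step was tested on simulated data. Alternatives were TMM factors, another prior, other filters, all cells, thinning to 100000 reads, and other windows, thresholds and depths for regions and promoters. Python 3.11.15, numpy 2.4.6, pandas 2.3.3, scipy 1.17.1, pyarrow 21.0.0, matplotlib 3.10.9, R 4.3.3 and edgeR 4.0.16 (TMM factors only) were used.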

Additional observations from a re-analysis of the deposited data

How the results depend on the processing

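No paired analysis was possible because each group compared had 1 sample in each assay. With a prior of 5 CPM, 2 genes in place of 4 were at least 2-fold higher in treated cells, since a larger prior shrinks the ratios of low genes. Among all 15052 genes with at least 10 reads, 1931 in place of 3021 were 2-fold higher with that prior. The 8 regions became 4 within 10 kb, 4 at a q-value of at most 0.01 and 3 with at least 20 CpG cytosines. The log2 ratio of Cdkn2d was reversed in lane 2 (-0.26). That of Pmaip1, which was within 2-fold, also turned sign, to -1.12 in lane 2 and to -0.10 without the cells that carried macrophage or hepatocyte markers. The causes were not tested. Of 86 log2 ratios recomputed, 43 stayed within the counting interval of the reported value, and the others, the sign changes above among them, left it. Of 48 differences in the share of cells, 48 stayed within their interval, although the sign turned in lane 2 for Cdkn2d, Cdkn1b and Pmaip1. Each interval ran from the treated lower limit minus the untreated upper limit to the treated upper limit minus the untreated lower limit. It was wide enough to hold both signs for each of the 8 genes, so that staying inside shows little. Also within their interval were 39 of 40 differences between cells with and without Mki67 or Top2a reads and 31 of 32 promoter ratios, the exceptions being Cdkn1a in cells with both markers (76.5 points) and Cdkn1a within 500 bases of its first start (0.73). Among these, the sign turned for the share of Btg1 with all cells (-15.2 points) and of Pmaip1 in cells with both markers (-2.61 points). The settings by lane, without the cell with most reads and without cells that carried macrophage or hepatocyte markers were chosen after seeing the data. With 1 sample per group and genes read in few cells, the spread between mice is unknown.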
